A study of Macaca mulatta with 49 samples.

Results

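The genes described here are 10 components of interleukin 15 (IL-15) signalling through receptors that share the common gamma chain: the ligand IL15, the receptor chains IL2RA, IL2RB, IL2RG, IL4R, IL7R and IL21R, the kinase JAK1 and the transcription factors STAT5A and STAT5B. They were chosen by gene symbol from 20041 genes that had a probe with 1 symbol, and each was read from the brightest of its probes. Together they have 16 probes on the array. RNA of central memory T cells (TCM) that were sorted out of blood cells from 12 rhesus macaques was hybridised to Illumina BeadChips designed on human sequence. CD8 and CD4 TCM were taken from each animal after and before treatment with an antibody against IL-15 (6 animals) or an IgG1 control antibody (6 animals), which gives 8 groups of 6 samples. The groups are therefore CD8 TCM after and before anti-IL-15, CD8 TCM after and before IgG1, and the same for CD4 TCM. The labels state no strain, age, dose or time since treatment, and each animal is a separate replicate.

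IL-15 is a cytokine that sustains memory CD8 T cells and natural killer (NK) cells. It is presented by neighbouring cells on IL15RA to a receptor made of IL2RB and the common gamma chain IL2RG. JAK1, bound to IL2RB, and JAK3, bound to IL2RG, then phosphorylate STAT5A and STAT5B, which enter the nucleus and switch on genes for survival and division. The same gamma chain joins IL7R, IL4R and IL21R to make the receptors for IL-7, IL-4 and IL-21, and IL2RA adds high affinity for IL-2. In T cells STAT5 also induces CISH and the SOCS genes, whose products shut the signal down.

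Each sample was bulk RNA, and 11448 to 13720 probes were detected in CD8 samples and 11993 to 14870 in CD4 samples, where detected means a detection p-value below 0.05 against the array's own background. The labels of the sort held for CD8A, which was 7.16 log2 units higher in CD8 than in CD4 TCM before treatment, in 12 of 12 animals. The probe for CD4 was not detected in any sample of 7 of the 8 groups, so it gives no check on the CD4 sort. Among markers of central memory cells, CCR7 was detected in both cell types, and no sample of 7 groups gave a signal for CD27. Monocyte and dendritic cell markers, 14 in all, stood apart in some CD8 libraries. Their mean log2 level was 5.36 to 7.83 in the 8 CD8 samples of animals 5 and 6 of both antibody groups, against 5.11 to 6.04 in the 16 CD8 samples of animals 1 to 4. In CD4 samples the same mean stayed between 5.12 and 5.55. Of these 14 markers 4 (S100A8, ITGAX, MNDA and SPI1) were not detected in CD8 TCM after anti-IL-15. In bulk samples fewer cells of a type and less RNA per cell cannot be told apart.

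The array saw the ligand and the receptor chains unevenly. IL15, the cytokine itself, was near the background: it was detected in 6 of 24 CD8 samples and in 1 of 24 CD4 samples, and its second probe in none of either. Of the 6 detections in CD8 TCM, 3 fell in the 6 samples after anti-IL-15, where the level was 4.64 to 5.39 (median 5.17), against 4.49 to 5.08 (median 4.87) before. In the IgG1 animals CD8 levels of IL15 were 4.44 to 5.20 (median 4.63) after and 4.61 to 5.10 (median 4.79) before. In CD4 TCM the medians of the 4 groups lay between 4.67 and 4.80, so all groups overlapped. IL15 was below the filter for testing in CD4 TCM, which asked for detection in 6 or more samples out of 24 per cell type. The brightest probe for IL15RA, the chain that presents IL-15, was detected in 4 of 24 CD8 and 3 of 24 CD4 samples, and the probe for JAK3, the kinase of the gamma chain, in none. The probes match human sequence, so no signal here is no evidence that macaque cells lacked the transcript.

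The other members were detected more often than IL15, but IL2RA and IL21R lay near background. IL2RA, the high-affinity chain for IL-2, was detected in 12 of 24 CD8 and 10 of 24 CD4 samples, and IL21R, the IL-21 receptor, in 16 and 18. IL2RB, IL2RG, IL4R, IL7R, JAK1, STAT5A and STAT5B were detected in all 24 samples of both cell types. Within a group the animals spread least for STAT5B in CD8 TCM (SD 0.12 on the log2 scale, pooled over its 4 groups) and most for IL4R in CD4 TCM (SD 0.50). STAT5B spread more in CD4 TCM, with an SD of 0.30, while IL2RB spread more in CD8 TCM (0.42 against 0.31).

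**Figure D1:**
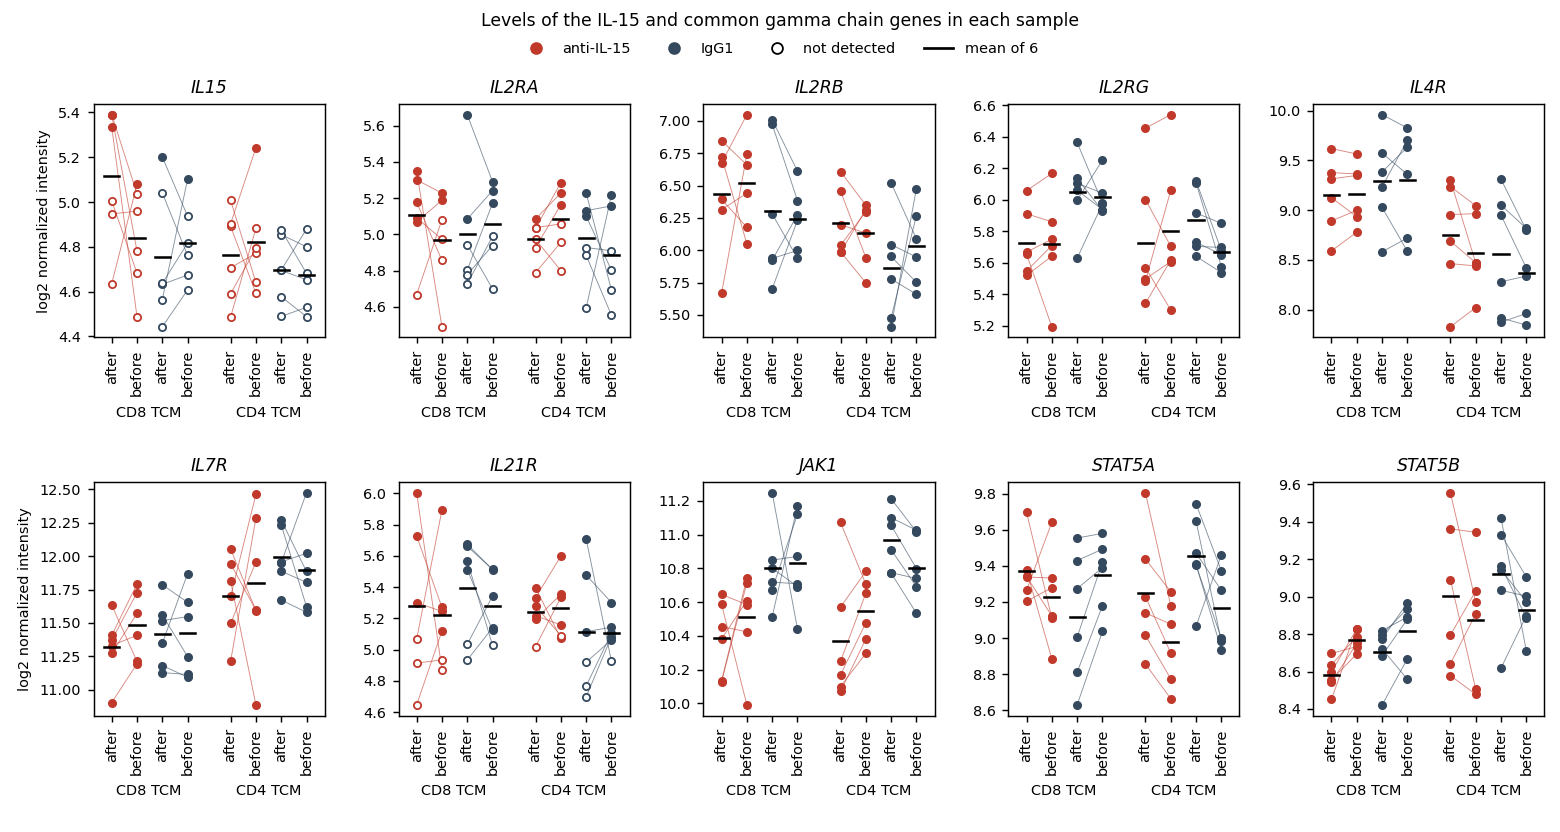
Level of each gene in every sample, as log2 normalized intensity with its own vertical axis. Points are samples (red for anti-IL-15, dark blue for IgG1), lines join the 2 samples of an animal, bars are means of 6 and open points were not detected. IL15 is open in most samples, and IL4R is higher in CD8 than in CD4 TCM in both antibody groups.

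The first comparison asked how CD8 and CD4 TCM differ in this axis before any antibody. CD8 TCM had more IL4R, the alpha chain of the IL-4 receptor, and slightly more IL2RB, the beta chain that carries the IL-15 and IL-2 signal, and at its brighter probe less IL7R, the receptor for IL-7. Of the 10 members, 2 were higher and 1 was lower by limma at an adjusted p below 0.05. Of all 9341 genes tested 36.2% were called in this comparison, so 3 of 10 is near the background, and 4 of 10 members had an unadjusted p below 0.05 beside 44.9% of all genes. The median difference of the members was 0.07 log2 units, beside 0.01 over all genes tested.

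IL4R was 8.59 to 9.82 (median 9.35) in CD8 TCM, against 7.84 to 9.04 (median 8.45) in CD4 TCM. The ranges overlapped, but within every one of the 12 animals CD8 TCM was higher. The difference was 0.77 ± 0.09 (SE), or 1.70-fold (limma, adjusted p = 2.8e-06). It passed in all 12 fits that left out 1 animal, where it ran from 0.73 to 0.80, and without animals 5 and 6 of both antibody groups it was 0.79.

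IL2RB was 5.94 to 7.05 (median 6.33) in CD8 TCM, against 5.66 to 6.48 (median 6.11) in CD4 TCM. CD8 TCM was higher in 10 of 12 animals, and the groups overlapped over most of their range. The difference was 0.30 ± 0.09, or 1.23-fold (limma, adjusted p = 0.0158). Without those animals, whose CD8 libraries had the high monocyte markers, it was 0.30 (adjusted p = 0.0851) with 8 animals left.

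IL7R was 11.09 to 11.87 (median 11.48) in CD8 TCM, against 10.89 to 12.48 (median 11.85) in CD4 TCM. CD8 TCM was lower in 10 of 12 animals. The difference was -0.39 ± 0.13, so that the level in CD8 was 0.761 of that in CD4 (limma, adjusted p = 0.026). It no longer passed when animal 4, 5 or 6 given anti-IL-15, or animal 1, 4 or 6 given IgG1, was left out (adjusted p up to 0.0616), and without animals 5 and 6 it was -0.26 (adjusted p = 0.291).

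A second probe of IL7R, also detected in all 48 samples, gave the opposite direction. It read 8.70 to 9.76 (median 9.22) in CD8 TCM, against 8.65 to 9.56 (median 8.91) in CD4 TCM. CD8 TCM was higher in 10 of 12 animals, by 0.25 ± 0.09 (limma over every probe, adjusted p = 0.038). In that fit the brighter probe had an adjusted p of 0.0261. The probes correlated at r = 0.46 over 48 samples after the group means were removed, as a description of samples that share arrays and animals. No direction for the gene as a whole follows from probes that disagree.

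**Figure D2:**
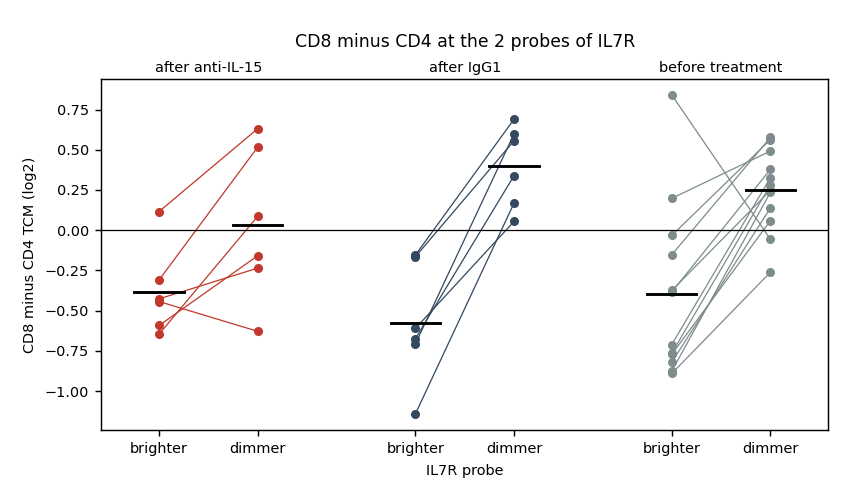
CD8 minus CD4 TCM in log2 units at the brighter and the dimmer probe of IL7R, for each animal after anti-IL-15 (red), after IgG1 (dark blue) and before treatment (grey). Lines join the 2 probes of an animal and bars are means, which are -0.39 and 0.25 before treatment.

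The remaining receptor chains differed little. IL2RG, the common gamma chain, was higher in CD8 TCM in 10 of 12 animals, but by 0.13 ± 0.12 (adjusted p = 0.423). Its level was 5.19 to 6.25 (median 5.93) in CD8 TCM, against 5.30 to 6.54 (median 5.67) in CD4 TCM. IL21R differed by 0.06 ± 0.11 and IL2RA by 0.03 ± 0.10, with 95% confidence intervals of -0.16 to 0.28 and -0.18 to 0.24. A dimmer IL2RA probe was detected in no CD8 sample and in 3 of 12 CD4 samples before treatment. Its CD8 minus CD4 difference was -0.30 (adjusted p = 0.0236), while the brighter probe read 4.49 to 5.29 in CD8 TCM, against 4.55 to 5.29 in CD4 TCM. With no CD8 sample above background no fold is given for that probe.

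Downstream of the receptors, JAK1, the kinase bound to IL2RB, showed no difference between the cell types at the precision reached. It was 9.99 to 11.17 (median 10.70) in CD8 TCM, against 10.30 to 11.03 (median 10.70) in CD4 TCM, with a 95% interval of the difference of -0.21 to 0.20. STAT5A was higher in CD8 TCM in 11 of 12 animals, at 8.88 to 9.64 (median 9.31), against 8.66 to 9.46 (median 9.04) in CD4 TCM. Its difference of 0.22 ± 0.08 stood at the threshold (adjusted p = 0.05) and was not called. STAT5B differed by -0.11 ± 0.09 (adjusted p = 0.383).

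After treatment IL4R was again higher in CD8 TCM in both antibody groups, and STAT5B was lower in both. After anti-IL-15, 1 of 10 members was higher in CD8 than in CD4 TCM (IL4R) and 1 was lower (STAT5B), where 24.6% of all genes tested were called. At an unadjusted p below 0.05 there were 4 members and 36.4% of all genes. After IgG1 these were 1 higher (IL4R) and 2 lower (IL7R and STAT5B), with 30.2% of all genes called. At an unadjusted p below 0.05 there were 3 members and 40.5% of all genes. The calls after anti-IL-15 were close to the threshold: with 1 animal of either antibody left out, from 0 to 2 members were called. The count was 0 when animal 1, 2 or 5 given anti-IL-15, or animal 1, 2 or 3 given IgG1, was left out. It was 1 when animal 6 given anti-IL-15, or animal 5 given IgG1, was left out. A count of 2 did not always hold the same members. Without animal 3 given anti-IL-15, limma called IL15 (adjusted p = 0.0123) and not IL4R. Without animal 4 of either antibody it called IL7R and not STAT5B.

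IL4R after anti-IL-15 was 8.59 to 9.62 (median 9.22) in CD8 TCM, against 7.83 to 9.30 (median 8.82) in CD4 TCM. CD8 TCM was higher in 6 of 6 animals by 0.41 ± 0.14, or 1.33-fold (adjusted p = 0.0471). After IgG1 it was 8.58 to 9.96 (median 9.31) in CD8 TCM, against 7.87 to 9.31 (median 8.61) in CD4 TCM, a difference of 0.73 ± 0.14 or 1.66-fold in 6 of 6 animals (adjusted p = 0.00114). Before treatment the difference was already 0.60 in the anti-IL-15 animals and 0.94 in the IgG1 animals. The CD8 change minus the CD4 change was -0.19 and -0.21 in these groups, and neither passed by limma. The call after anti-IL-15 passed in 4 of 12 fits without 1 animal (adjusted p up to 0.15), and that after IgG1 passed in all 12. Without animals 5 and 6 it was 0.40 after anti-IL-15 (adjusted p = 0.131).

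STAT5B was lower in CD8 TCM after either antibody. After anti-IL-15 it was 8.45 to 8.70 (median 8.58) in CD8 TCM, against 8.58 to 9.56 (median 8.94) in CD4 TCM, a difference of -0.42 ± 0.15 that was negative in 5 of 6 animals (adjusted p = 0.0477). After IgG1 it was 8.42 to 8.82 (median 8.75) in CD8 TCM, against 8.62 to 9.42 (median 9.15) in CD4 TCM, a difference of -0.42 ± 0.15 that was negative in 5 of 6 animals (adjusted p = 0.0447). The ranges overlapped in both. The call passed in 3 of 12 fits without 1 animal after anti-IL-15 (adjusted p up to 0.175) and in 6 of 12 after IgG1 (adjusted p up to 0.117). Without animals 5 and 6 the difference was -0.42 (adjusted p = 0.138) after anti-IL-15 and -0.53 (adjusted p = 0.0576) after IgG1.

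IL7R at its brighter probe was lower in CD8 TCM in 5 of 6 animals after anti-IL-15, with a difference of -0.38 (adjusted p = 0.0564), and in 6 of 6 after IgG1. After IgG1 it was 11.13 to 11.79 (median 11.43) in CD8 TCM, against 11.67 to 12.27 (median 11.95) in CD4 TCM, a difference of -0.57 ± 0.14 (adjusted p = 0.00547) that passed in all 12 fits without 1 animal. The dimmer probe again ran the other way after IgG1, by 0.40 (adjusted p = 0.0612) and higher in CD8 TCM in 6 of 6 animals. After anti-IL-15 its difference was 0.04, higher in 3 of 6 animals. IL15 was higher in CD8 TCM in 5 of 6 animals after anti-IL-15, with a measured difference of 0.35 (adjusted p = 0.0822). The probe was detected in no CD4 sample of that group and in 3 of its 6 CD8 samples, so no fold is given.

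**Figure D3:**
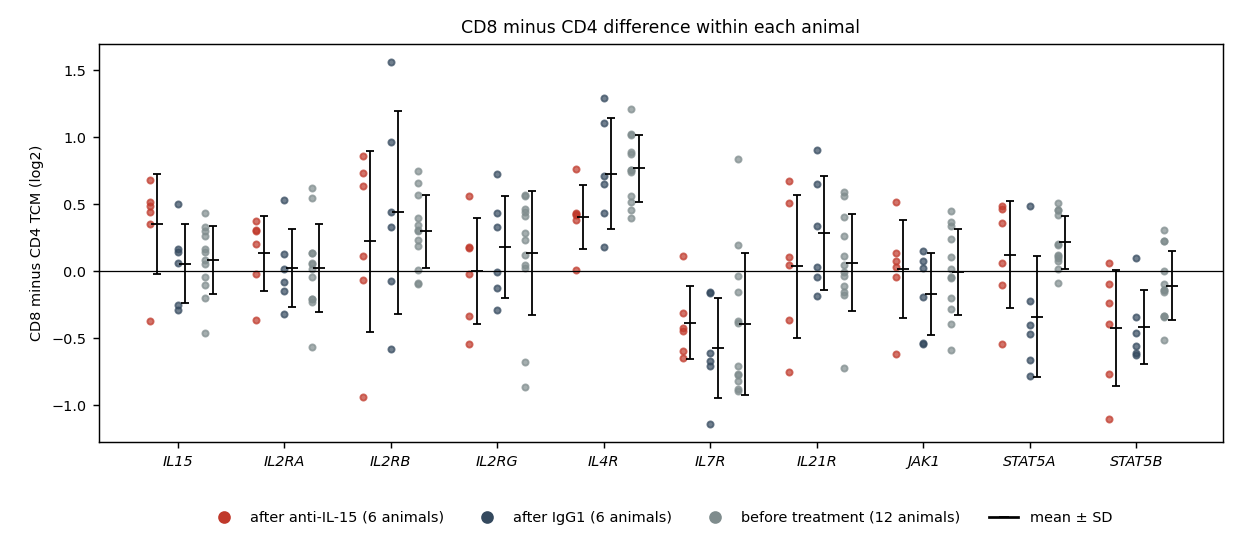
CD8 minus CD4 TCM within each animal, in log2 units, for the 10 genes after anti-IL-15 (red, 6 animals), after IgG1 (dark blue, 6 animals) and before treatment (grey, 12 animals). Black bars are the mean ± SD. All points of IL4R lie above 0, and those of IL7R at its brighter probe lie mostly below 0.

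Monocyte and dendritic cell markers also differed in these comparisons. Of 9 such markers tested, 5 were higher in CD8 TCM before treatment, 6 after anti-IL-15 and 1 after IgG1. Over all genes tested 15.3%, 9.81% and 11.4% were higher in the same comparisons, so the count after IgG1 is near that share. The shares of all genes that were lower were 20.9%, 14.8% and 18.8%. LYZ, a lysozyme of myeloid cells, was 1.43 higher in CD8 than in CD4 TCM before treatment, and CD14, a monocyte receptor, 0.97 higher. With the mean of these markers as a covariate, 1 member (IL4R) was called before treatment, 0 after anti-IL-15 and 3 after IgG1. In these fits 20.9%, 23.1% and 31.6% of all genes were called, beside 36.2%, 24.6% and 30.2% without the covariate. Of 3 regulatory T cell markers tested, 2 were lower in CD8 TCM before treatment, 1 after anti-IL-15 and 2 after IgG1. Their median CD8 minus CD4 differences were -0.56, -0.03 and -0.60. Before treatment the difference was -0.90 for CTLA4, an inhibitory receptor, and -0.56 for TNFRSF18, a receptor of the TNF family. B cell markers were higher in CD8 TCM for 2 of 4 tested before treatment, 2 after anti-IL-15 and 3 after IgG1, with median differences of 0.33, 0.30 and 0.64. NK cell markers were higher for 2 of 6 tested before treatment, 3 after anti-IL-15 and 2 after IgG1. Of 5 T cell identity genes tested, 3 were lower in CD8 TCM before treatment, 2 after anti-IL-15 and 2 after IgG1. Erythroid genes were higher for 0 of 4 tested before treatment and for 2 after each antibody. The part of other cells in the members' differences, IL4R and IL2RB included, was not tested beyond these values.

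The next comparison asked what changed in the cells after each antibody. None of the 10 members changed in CD8 TCM after anti-IL-15 by limma, at the adjusted threshold or at an unadjusted p below 0.05. Over all 8603 genes tested in CD8 TCM 0.174% were called (0.0232% lower), and 9.44% had an unadjusted p below 0.05. In CD4 TCM 0 of 9 tested members were called, with 0 at an unadjusted p below 0.05, where 0.0337% of 8905 genes were called and 5.67% had an unadjusted p below 0.05. After IgG1, 0 of 10 members in CD8 TCM and 0 of 9 in CD4 TCM were called, with 0 at an unadjusted p below 0.05 in each, and 0% of all genes were called in either cell type. After IgG1 7.03% of all genes in CD8 TCM and 3.53% in CD4 TCM had an unadjusted p below 0.05. The members' changes in CD8 TCM ran from -0.19 to 0.28 after anti-IL-15 and from -0.23 to 0.12 after IgG1. The median size of the members' changes in CD8 TCM was 0.131 after anti-IL-15, beside 0.134 over all genes tested, and 0.0596 after IgG1, beside 0.133. In CD4 TCM it was 0.108 after anti-IL-15, beside 0.113, and 0.169 after IgG1, beside 0.102. After IgG1 8 of 9 members tested in CD4 TCM had a positive change, with a median of 0.17 beside -0.0014 over all genes.

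IL2RB and IL2RG, which bind IL-15 on the T cell, stood as follows. In CD8 TCM IL2RB was 5.67 to 6.85 (median 6.53) after anti-IL-15, against 6.05 to 7.05 (median 6.55) before. It was higher after treatment in 3 of 6 animals, and the mean change was -0.08 with a 95% interval of -0.49 to 0.33. After IgG1 the change was 0.06, with an interval of -0.35 to 0.47. IL2RG in CD8 TCM was 5.52 to 6.06 (median 5.66) after anti-IL-15, against 5.19 to 6.17 (median 5.73) before, a change of 0.01 with an interval of -0.27 to 0.28.

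IL15 had the largest measured change in CD8 TCM after anti-IL-15, 0.28 ± 0.16 (adjusted p = 0.607), positive in 4 of 6 animals. Per animal it ran from -0.44 to 0.85, and most of the samples behind it were not detected. STAT5B was lower after treatment in 6 of 6 animals of that group, with changes of -0.38 to -0.04, but did not pass. Its level was 8.45 to 8.70 (median 8.58) after anti-IL-15, against 8.69 to 8.83 (median 8.77) before, so the groups overlapped only at their edges. The mean change was -0.19 ± 0.11 (SE from the fit of both antibody groups, adjusted p = 0.61). After IgG1 the mean change was -0.11, negative in 5 of 6 animals. IL7R had a change of -0.16, positive in 1 of 6 animals, and its dimmer probe one of -0.08. The changes of IL4R, IL21R and JAK1 in CD8 TCM after anti-IL-15 were -0.01, 0.05 and -0.12.

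STAT5A had opposite signs in CD8 and CD4 TCM of the IgG1 animals, without passing the threshold. In CD8 TCM after IgG1 it was 8.63 to 9.55 (median 9.14), against 9.04 to 9.58 (median 9.40) before, a change of -0.23 ± 0.13 that was negative in 6 of 6 animals (adjusted p = 0.695). In CD4 TCM after IgG1 it was 9.07 to 9.74 (median 9.44), against 8.93 to 9.46 (median 9.13) before, a change of 0.29 ± 0.14, positive in 5 of 6 animals. The CD8 change minus the CD4 change after IgG1 was -0.52 ± 0.19, with an unadjusted p of 0.00945 and an adjusted p of 0.986 by limma. Across all genes this comparison had 0% called and 4.39% at an unadjusted p below 0.05, beside 1 of 10 members. After anti-IL-15 STAT5A was 8.86 to 9.81 (median 9.18) in CD4 TCM, against 8.66 to 9.26 (median 9.00) before, positive in 6 of 6 animals with a change of 0.27 ± 0.14 (adjusted p = 0.883).

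No other tested member in CD4 TCM passed the threshold after either antibody. The changes after anti-IL-15 ran from -0.18 for JAK1 to 0.27 for STAT5A, and those after IgG1 from -0.17 for IL2RB to 0.29 for STAT5A. JAK1 was 10.07 to 11.07 (median 10.21) after anti-IL-15, against 10.30 to 10.78 (median 10.56) before, lower in 5 of 6 animals. After IgG1 JAK1 was 10.77 to 11.21 (median 10.98), against 10.53 to 11.03 (median 10.77) before, higher in 6 of 6 animals. The difference between these changes was -0.35 ± 0.17 (unadjusted p = 0.0606, adjusted p = 0.999). IL2RG in CD4 TCM also was higher after IgG1 in 6 of 6 animals, by 0.20 ± 0.14, and had a change of -0.08 after anti-IL-15.

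**Figure D4:**
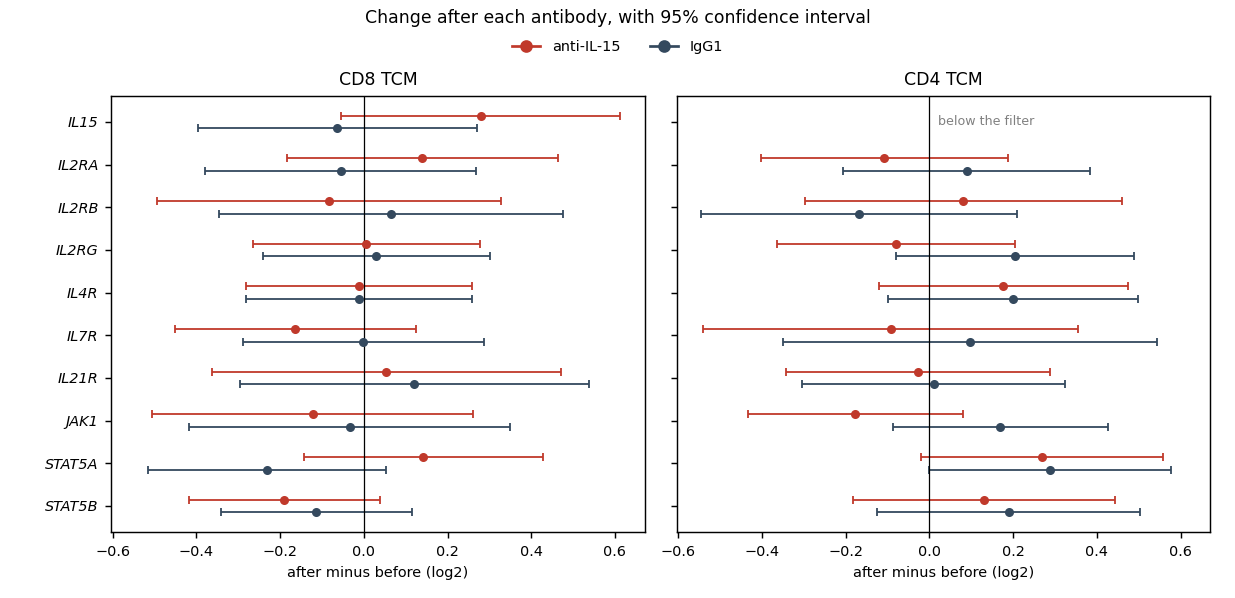
Change after minus before in log2 units, with the 95% confidence interval from limma, for each gene in CD8 TCM (left) and CD4 TCM (right), after anti-IL-15 (red) and after IgG1 (dark blue). Every interval includes 0, and IL15 was below the filter in CD4 TCM.

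The direct test of the antibody is the change after anti-IL-15 minus the change after IgG1. By limma 0 members of 10 in CD8 TCM and 0 of 9 in CD4 TCM passed, with 0 at an unadjusted p below 0.05 in either. Among all genes 0% were called in both cell types, and 7.58% in CD8 and 3.75% in CD4 TCM had an unadjusted p below 0.05. The widest differences in CD8 TCM were 0.37 ± 0.19 for STAT5A and 0.34 ± 0.22 for IL15, with adjusted p of 0.704 and 0.765. The CD8 change minus the CD4 change after anti-IL-15 had 0 of 10 members past the threshold and 0 at an unadjusted p below 0.05, where 0% of all genes passed and 3.63% had an unadjusted p below 0.05. For STAT5B this difference was -0.32 ± 0.18 (adjusted p = 1).

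Before treatment the anti-IL-15 animals and the IgG1 animals did not differ past the threshold in any member, with 0 of 10 called in CD8 TCM and 0 of 9 in CD4 TCM by limma, 0 at an unadjusted p below 0.05, and 0% of all genes called. An unadjusted p below 0.05 was found for 6.37% of all genes in CD8 TCM and 11.5% in CD4 TCM. JAK1 in CD8 TCM was 9.99 to 10.74 (median 10.60) in the anti-IL-15 animals, against 10.44 to 11.17 (median 10.79) in the IgG1 animals, a difference of -0.32 ± 0.16 (adjusted p = 0.767). For IL2RG in CD8 TCM the same difference was -0.30 ± 0.15 (adjusted p = 0.767).

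Genes that act with the receptors were read from 6 lists of 60 genes: other ligands of the family, other receptor chains, other JAK and STAT proteins, adaptors and downstream kinases, inhibitors of cytokine signalling, and STAT5 target genes. On the array 53 had a probe, of which 37 were tested in CD8 TCM, 39 in CD4 TCM and 39 between the cell types. Of the 6 ligands on the array 1 was tested, and of the 4 other receptor chains 0. IL4, IL7, IL13 and IL21 were detected in no sample, and IL2 in 1. TSLP was detected in 10 of 24 CD8 and 6 of 24 CD4 samples. Of the receptor chains IL9R, CRLF2 and IL13RA1 were detected in at most 2 of 24 samples of a cell type.

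After anti-IL-15, 1 of 37 of these genes was called higher in CD8 TCM and 1 of 39 in CD4 TCM. Both inhibit signalling through JAK and STAT proteins. Over all genes tested 0.174% were called in CD8 TCM and 0.0337% in CD4 TCM. SOCS3 in CD8 TCM was 6.33 to 7.73 (median 7.18) after anti-IL-15, against 5.37 to 6.66 (median 5.69) before, a change of 1.29 ± 0.20 or 2.44-fold in 6 of 6 animals (adjusted p = 0.0226). SOCS1 in CD4 TCM was 9.34 to 10.18 (median 9.78) after anti-IL-15, against 8.17 to 9.37 (median 8.69) before, a change of 1.05 ± 0.14 or 2.07-fold in 6 of 6 animals (adjusted p = 0.00529). The same genes had positive changes after IgG1, of 0.39 for SOCS3 in CD8 TCM (4 of 6 animals) and 0.76 for SOCS1 in CD4 TCM (6 of 6 animals, adjusted p = 0.325). In the other cell type neither gene was called, but each rose in 6 of 6 animals after anti-IL-15. SOCS1 changed by 0.98 in CD8 TCM and SOCS3 by 0.93 in CD4 TCM. After IgG1 these changes were 0.51 (5 of 6 animals) and 0.65 (6 of 6 animals). The anti-IL-15 change minus the IgG1 change was 0.90 ± 0.28 for SOCS3 in CD8 TCM (adjusted p = 0.604) and 0.29 ± 0.20 for SOCS1 in CD4 TCM (adjusted p = 0.999). A dimmer probe of SOCS3 was detected in 13 CD8 and 15 CD4 samples. In CD8 TCM it gave 0.03 after anti-IL-15 (higher in 2 of 6 animals) and 0.29 after IgG1 (5 of 6 animals). Its larger change there was thus after IgG1, the reverse of the brighter probe. In CD4 TCM it gave 0.80 after anti-IL-15 (5 of 6 animals) and 0.71 after IgG1 (6 of 6 animals). The call of SOCS3 in CD8 TCM therefore rests on the brighter probe alone. SOCS3 no longer passed once animal 1, 2 or 5 of the anti-IL-15 group was left out (adjusted p up to 0.0734) and SOCS1 once animal 4 was (adjusted p = 0.0574). With each animal left out in turn the change itself ran from 1.14 to 1.43 for SOCS3 and from 0.98 to 1.11 for SOCS1. With the monocyte marker mean as a covariate SOCS3 was still called in CD8 TCM and SOCS1 was not in CD4 TCM, and without animals 5 and 6 SOCS3 was not called and SOCS1 was.

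None of the 11 STAT5 target genes tested changed past the threshold after anti-IL-15 in either cell type by limma, with 1 in CD8 and 2 in CD4 TCM at an unadjusted p below 0.05, where all genes gave 9.44% and 5.67%. After IgG1 these counts were 1 in CD8 and 3 in CD4 TCM, where all genes gave 7.03% and 3.53%. The median change of these targets in CD8 TCM was 0.12 with anti-IL-15 and 0.02 with IgG1. In CD4 TCM it was 0.08 after anti-IL-15 and 0.20 after IgG1.

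Between the cell types many of these genes differed before treatment: 9 of 39 were higher and 15 were lower in CD8 than in CD4 TCM, beside 15.3% higher and 20.9% lower over all genes tested. Among the inhibitors 8 of 12 were lower and 1 was higher, with a median difference of -0.34. SOCS3 was 5.12 to 6.66 (median 5.92) in CD8 TCM, against 6.00 to 7.19 (median 7.05) in CD4 TCM, a difference of -1.06 ± 0.14 (adjusted p = 9.82e-06). SOCS2, of the same family, was detected in 2 of 12 CD8 and 10 of 12 CD4 samples, so its measured difference of -1.14 ± 0.19 (adjusted p = 0.000107) rests on CD8 levels mostly at background. PTPN11, a phosphatase that also carries activating signals, was 8.78 to 9.67 (median 9.33) in CD8 TCM, against 9.70 to 10.70 (median 10.16) in CD4 TCM, with no overlap and a difference of -0.86 ± 0.11 (adjusted p = 7.79e-06). PTPN2, which dephosphorylates JAK and STAT proteins, had a difference of -0.73 ± 0.11 and was lower in 12 of 12 animals (adjusted p = 6.17e-05). PTPN6, another phosphatase, was the one that was higher, by 0.35 ± 0.12 (adjusted p = 0.028). PTPRC, a phosphatase of all white blood cells, was called lower although no CD8 sample before treatment detected it. PTPN6 and PTPRC were singled out after their values were seen.

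Among STAT5 targets 2 of 11 were higher and 4 were lower in CD8 TCM before treatment. BCL2, which protects cells from apoptosis, was 6.58 to 9.44 (median 7.63) in CD8 TCM, against 7.36 to 10.28 (median 8.61) in CD4 TCM, and lower in CD8 TCM in 12 of 12 animals, with a difference of -1.04 ± 0.15 (adjusted p = 2.97e-05). CCND3, a cyclin of the G1 phase, was 10.66 to 11.27 (median 10.89) in CD8 TCM, against 9.92 to 10.88 (median 10.24) in CD4 TCM, higher in 12 of 12 animals by 0.62 ± 0.09 (adjusted p = 2.1e-05). OSM, a cytokine gene, had a difference of 0.43 ± 0.12 and PIM2, a kinase, one of -0.29 ± 0.10 (adjusted p = 0.00645 and 0.0292).

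Of the other JAK and STAT genes 2 of 5 were higher and 1 was lower before treatment. JAK2 was detected in 2 of 12 CD8 and 9 of 12 CD4 samples and had a difference of -0.77 ± 0.12 (adjusted p = 8.54e-05). TYK2, a kinase of the same family, was 0.44 ± 0.11 higher (adjusted p = 0.00341) and STAT4 0.28 ± 0.10 higher (adjusted p = 0.0405). Of the adaptors and kinases 4 of 10 were higher and 2 were lower. SOS1, which activates RAS, was detected in 4 of 12 CD8 and 12 of 12 CD4 samples and had a difference of -0.88 ± 0.11 (adjusted p = 6.74e-06) and MAP2K1, a kinase of the MAP kinase cascade, one of -0.44 ± 0.12 (adjusted p = 0.00715). PIK3R1 and PIK3CD, subunits of phosphoinositide 3-kinase, were 0.43 ± 0.13 and 0.31 ± 0.10 higher (adjusted p = 0.0145 and 0.0159).

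**Figure D5:**
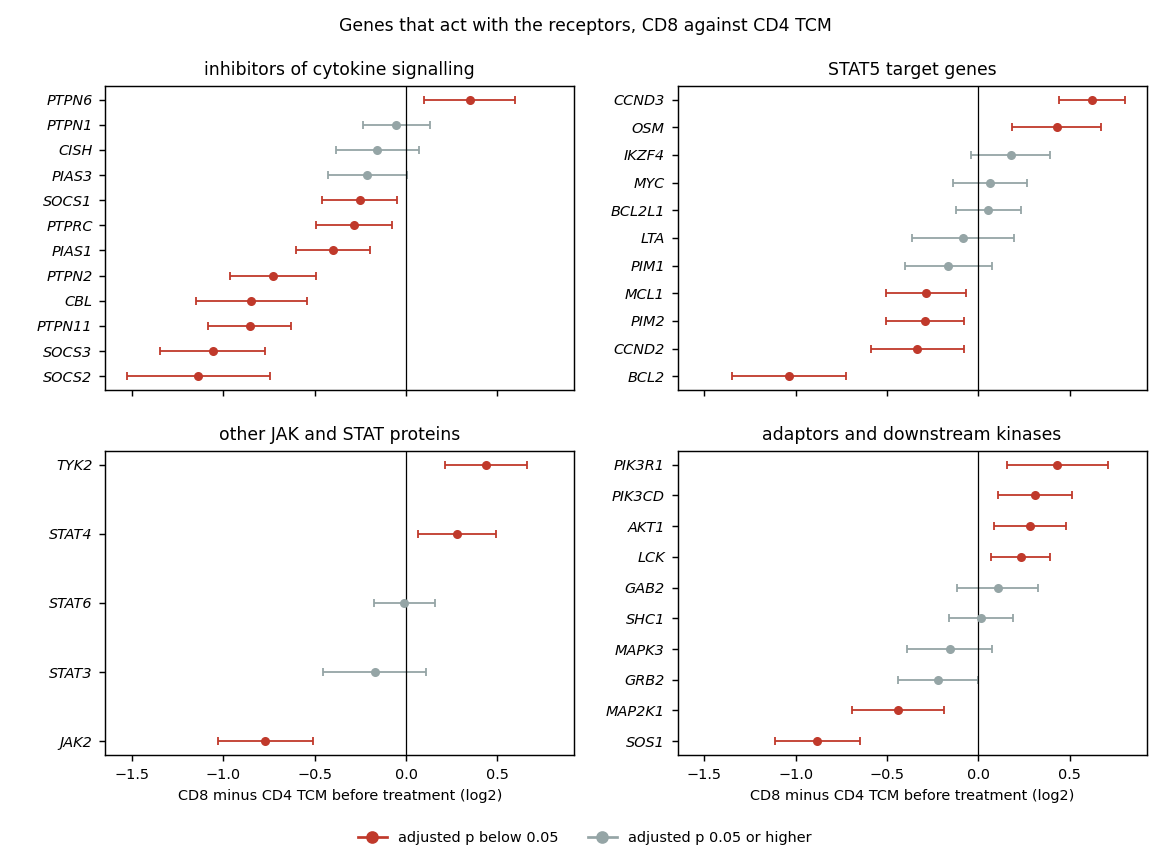
CD8 minus CD4 TCM before treatment in log2 units, with the 95% confidence interval from limma over 12 animals, for the tested genes of 4 lists. Red points passed an adjusted p of 0.05 and grey points did not. Of the inhibitors 8 lie below 0 in red and 1 above it, and BCL2 and CCND3 mark the ends of the STAT5 targets.

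These counts fell where the CD8 libraries with high monocyte markers were left out or the markers entered the fit. Without animals 5 and 6 of both antibodies 3 of the 39 genes were higher and 9 lower before treatment, beside 20.2% of all genes called. With the monocyte marker mean as a covariate 2 were higher and 10 lower, beside 20.9%. SOCS2, SOCS3, PTPN2, PTPN11, JAK2, SOS1, PIK3R1, BCL2 and CCND3 passed in both of these fits and in all 12 fits without 1 animal. TYK2, MAP2K1, PIK3CD, STAT4 and PTPN6 passed in neither of the first 2 fits, OSM did not pass with the covariate, and PIM2 did not pass without animals 5 and 6.

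After anti-IL-15, 2 of these 39 genes were higher and 10 lower in CD8 than in CD4 TCM, and after IgG1 6 were higher and 13 lower. Over all genes tested 9.81% were higher and 14.8% lower after anti-IL-15, and 11.4% higher and 18.8% lower after IgG1. BCL2 differed by -0.88 ± 0.14 after anti-IL-15 (adjusted p = 0.000272) and by -1.44 ± 0.14 after IgG1 (adjusted p = 2.58e-06). SOCS3 differed by -0.66 ± 0.21 after anti-IL-15 and -1.36 ± 0.21 after IgG1 (adjusted p = 0.0283 and 0.000186). Whether these differences themselves differ between the antibodies was not tested.

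The members did not vary as one group across animals. After the group means were removed, the 45 pairs of members had a median correlation of 0.01 over 48 samples, and 23 were positive. The highest was 0.45 between STAT5A and STAT5B, and the lowest was -0.45 between IL2RA and IL2RB. By the same measure, over 9340 other genes, those most like IL15 were YIPF4 (r = 0.61), XPR1 (0.60) and MED13L (0.55). Those most like IL2RB were CDK20 (r = 0.65), CLASP1 (0.57) and KRTAP27-1 (0.56), and those most like IL7R were EFCAB14 (r = 0.77), CILK1 (0.71) and ERLEC1 (0.70). The samples share arrays, amplification and animals, so these values describe the libraries.

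The number of cells sorted for each sample is in the labels. For CD4 TCM it was 197000 to 534000 (median 303000) after anti-IL-15, against 411000 to 958000 (median 503500) before, lower in 6 of 6 animals with a geometric mean ratio of 0.527 (exact two-sided sign-flip test, p = 0.03125, the smallest that 6 animals allow). For CD4 TCM after IgG1 the ratio was 0.802, lower in 4 of 6 animals (exact p = 0.2812). For CD8 TCM it was 23000 to 95000 (median 51000) after anti-IL-15, against 30000 to 116000 (median 70500) before, with a ratio of 0.787, lower in 5 of 6 animals (exact p = 0.125), and 0.79 after IgG1 (exact p = 0.25). With the log2 cell number as a covariate no member was called after either antibody by limma.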

How the data were processed

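Per the file headers, the deposited table of the series holds for each of 47230 probes a bead intensity and a detection p-value on each of 49 arrays. The deposited value table holds log2 values, of which 99.8% lay within 0.001 of the log2 of the quantile-normalized intensity recomputed here, so it has no background correction. The submitters' processing notes name limma, with no version, and the build and annotation are not given in the sources used here. One sample, run on 2 arrays (r = 0.988), was averaged. Probes with a reading of 0 on any array, 13 in number, were left out. Of the rest 30105 carried 1 symbol in the platform annotation.

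Intensities went through neqc (limma 3.58.1, R 4.3.3, offset 16), which corrects the background, normalizes by quantiles and takes log2. Genes were tested with lmFit and eBayes where the brightest probe had a detection p-value below 0.05 in 6 or more samples out of 24 per cell type. The animal was a fixed block, except between antibody groups before treatment. Benjamini-Hochberg adjustment covered every gene tested in a comparison, and 0.05 was the threshold. The labels name the animal, which pairs the samples: deviations from the group mean correlated between the samples of an animal at a median r of 0.403 (anti-IL-15) and 0.387 (IgG1) for CD8, and 0.223 and 0.403 for CD4. In the anti-IL-15 animals the lowest r was 0.109 for CD8 and 0.00827 for CD4. The best match was the same animal in 4 of 6 and 5 of 6 pairs there, against 6 of 6 in each cell type for IgG1. The misspelt time point of the control samples was read as after treatment. The code of the fits was run on simulated data with planted shifts and genes drawn independently. Its outcome is not given here, and it is no evidence on the members. Figures were drawn in Python 3.11.15.

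All 10 members are named. Of each pathway list the counts and up to 4 genes with the lowest p in a comparison were named, and 3 genes most like IL15, IL2RB and IL7R. The members, lists and rules were chosen with earlier results of these data known. The alternatives tried were normexp (offset 50), the deposited value table, no filter, a stricter filter (0.01 in 12 of 24), every probe, no replicate block, sorted cell number as a covariate and each animal left out. The monocyte marker covariate and the fit without animals 5 and 6 of both antibodies were chosen after seeing the data. The number of arrays limits the precision.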

Additional observations from a re-analysis of the deposited data

Results flagged for a closer look

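Of 120 sets of 6 values tested for a lone outlying animal (80 levels and 40 changes), 5 held one, where chance gives about 1 in 20, or 6. In CD8 TCM before IgG1, animal 5 had IL2RG at 6.25, above the other 5 at 5.93 to 6.04. In CD8 TCM after anti-IL-15, animal 6 had STAT5A at 9.70, above 9.20 to 9.38 in the others, and its CD8 library also had the highest monocyte marker mean, 7.83. In CD8 TCM after IgG1, animal 3 had STAT5B at 8.42, below 8.69 to 8.82 in the others. The IL2RG change in CD8 TCM after anti-IL-15 was 0.46 in animal 1, against -0.16 to 0.05 in the others. The JAK1 change in CD4 TCM after anti-IL-15 was 0.37 in animal 2, against -0.40 to -0.20 in the others.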

How the results depend on the processing

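In all alternatives run, 0 members were called after either antibody, for the difference between antibodies, between antibody groups before treatment, or for the CD8 change minus the CD4 change, each animal left out included. Before treatment the CD8 minus CD4 count of 3 was 1 with the monocyte marker mean as a covariate and 1 without animals 5 and 6. In these fits 20.9% and 20.2% of all genes were called, beside 36.2% in the main fit. The count ran from 2 to 4 with 1 animal left out. It was 4, with STAT5A added, with the deposited value table, with normexp and with the stricter filter. After anti-IL-15 the count of 2 was 0 with no filter, with every probe tested, with the monocyte covariate and without animals 5 and 6. It ran from 0 to 2 with 1 animal left out. With the deposited value table, normexp and the stricter filter it was 3, with IL7R at its brighter probe added. Of all genes 23.1% were called with the covariate and 18.4% without animals 5 and 6, beside 24.6% in the main fit. After IgG1 the count of 3 ran from 2 to 4. The samples are paired by animal. With no replicate block the counts were 2 before treatment, 0 after anti-IL-15 and 1 after IgG1, and it changed no other count of members. Without the block 31.2%, 16.4% and 22.3% of all genes were called in these comparisons. SOCS3 in CD8 TCM and SOCS1 in CD4 TCM after anti-IL-15 were also not called with no replicate block, nor was SOCS3 with no filter or SOCS1 with the sorted cell number as a covariate. The cause of these losses was not tested. The dimmer IL7R probe reversed the direction (0.25 before treatment and 0.40 after IgG1, against -0.39 and -0.57). The dimmer IL2RA probe gave -0.30 and -0.42 (limma adjusted p = 0.0236 and 0.0169) where the brighter one gave 0.03 and 0.02, neither of which passed; it was detected in 0 of 24 CD8 samples, where its level is only a bound. The ratio of sorted cells ran from 0.715 to 0.845 for CD8 and 0.47 to 0.58 for CD4 TCM after anti-IL-15, and from 0.696 to 0.877 and 0.708 to 0.877 after IgG1; with 5 animals the exact test cannot reach 0.05 and gave 0.0625 for CD4 TCM after anti-IL-15. IL15, IL2RA and IL21R lay near background, which limits them.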
